A study of Mus musculus with 2 samples.

Results

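The probe sets for pancreatic amylases, lipases and their cofactors were compared between RNA pools of adult mouse pancreas. Members were all probe sets whose gene symbol field, in the platform annotation, held any of 9 genes: Amy2a5, Amy2b, Amy1, Pnlip, Pnliprp1, Pnliprp2, Cel, Clps or Pla2g1b. This gave 13 probe sets of 45101 on the array, and these read 7 of the 9 genes. Pnlip and Amy2b had no probe set under this annotation and were not analysed here. Of the 13 probe sets, 2 carried several gene symbols. The first was annotated to Amy2a1, Amy2a2, Amy2a3, Amy2a4 and Amy2a5 together, and the second to Rnpc3 and Amy1.

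The methionine-deficient pool held pancreas RNA of 10-week-old male C57BL/6J offspring whose mothers ate a diet deficient in methionine during pregnancy, and the control pool that of male offspring of mothers on control diet. All offspring were weaned at 3 weeks onto control diet, so neither group was itself fed the deficient diet after birth, and the comparison asks whether the maternal diet is reflected in adult pancreatic transcripts. Each pool was hybridised to 1 array, so n = 1 for each group, the spread between mice was not measured, and no value below has a p-value. The sources used here do not say how many mice and litters entered a pool. The error beside a log2 difference is the probe-set spread, a robust SD estimated from pairs of probe sets of the same gene at like levels, and it covers probe noise within these 2 arrays only.

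Acinar cells of the exocrine pancreas secrete the enzymes that digest starch, fat and phospholipid in the intestine. Alpha-amylase cuts the internal bonds of starch, and in the mouse the Amy2 genes are the pancreatic type while Amy1 is best known as the salivary type. Pancreatic lipase (Pnlip) cuts triglycerides and needs colipase (Clps) to bind to fat droplets covered with bile salts. Its relatives are Pnliprp1, which has little known lipase activity, and Pnliprp2, which also cuts galactolipids and phospholipids. Carboxyl ester lipase (Cel) is activated by bile salts and acts on cholesterol esters and other lipid esters, and Pla2g1b is the secreted phospholipase A2 that is made as a proenzyme and cleaved by trypsin.

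The amylase genes are copies that stand side by side, in the order Amy2b, Amy2a5, Amy2a4, Amy2a3, Amy2a2, Amy2a1 and Amy1, followed by Rnpc3, with no other protein-coding gene between them in the RefSeq annotation of chromosome 3. Pnlip, Pnliprp1 and Pnliprp2 are likewise consecutive protein-coding genes on chromosome 19. RefSeq windows were held for 8 of the 9 members (build GRCm38.p6), and Clps is named only. The 250 bases before the annotated start are shown for 4 amylase genes and for Cel, whose probe set ranks next among the members. Of the amylase genes shown, Amy2a5 and Amy2a4 are annotated to the brightest member probe set, and Amy2b and Amy1 are not. Capitals mark CACCTG (an E-box), TTTCCC and TATAAA, read on either strand. CACCTG and TTTCCC are the letters searched for as the parts of the site of PTF1, the transcription factor complex of acinar cells.
Amy2a5, chr3:113258700-113258949, minus strand: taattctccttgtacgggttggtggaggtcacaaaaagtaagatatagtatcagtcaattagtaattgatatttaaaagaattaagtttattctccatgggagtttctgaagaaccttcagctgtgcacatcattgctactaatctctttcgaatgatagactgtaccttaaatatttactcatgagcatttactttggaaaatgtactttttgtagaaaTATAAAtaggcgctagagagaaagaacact
Amy2a4, chr3:113291450-113291699, minus strand: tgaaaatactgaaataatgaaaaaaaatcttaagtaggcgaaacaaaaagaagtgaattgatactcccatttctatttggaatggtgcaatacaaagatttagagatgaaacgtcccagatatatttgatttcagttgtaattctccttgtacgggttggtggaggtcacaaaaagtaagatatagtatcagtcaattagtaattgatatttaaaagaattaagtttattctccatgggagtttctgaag
Amy2b, chr3:113156728-113156977, minus strand: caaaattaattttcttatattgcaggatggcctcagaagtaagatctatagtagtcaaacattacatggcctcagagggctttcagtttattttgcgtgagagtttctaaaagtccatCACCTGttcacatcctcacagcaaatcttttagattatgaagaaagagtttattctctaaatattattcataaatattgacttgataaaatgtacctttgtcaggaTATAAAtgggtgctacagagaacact
Amy1, chr3:113574763-113575012, minus strand: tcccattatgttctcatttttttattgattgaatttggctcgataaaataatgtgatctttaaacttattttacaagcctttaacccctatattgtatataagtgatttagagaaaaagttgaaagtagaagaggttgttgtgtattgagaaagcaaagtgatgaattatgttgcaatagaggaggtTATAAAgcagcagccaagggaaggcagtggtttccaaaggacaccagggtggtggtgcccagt
Cel, chr2:28563404-28563653, minus strand: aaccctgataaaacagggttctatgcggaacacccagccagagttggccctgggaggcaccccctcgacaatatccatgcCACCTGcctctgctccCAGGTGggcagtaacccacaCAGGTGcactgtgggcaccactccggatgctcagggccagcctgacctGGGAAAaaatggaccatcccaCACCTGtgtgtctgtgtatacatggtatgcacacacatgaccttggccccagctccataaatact

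The windows of Amy2a2, Amy2a3 and Amy2a4, taken with 50 bases after the start, were identical over 300 bases, and that of Amy2a1 had 94% of its positions in common with them. The shared runs given next were also taken over 300 bases. The Amy2a5 window shared an unbroken run of 162 bases with that of Amy2a4, displaced by 138 bases because the annotated starts lie at different points of the copies. In Amy2a4 this run continues past the start, beyond the bases shown. Amy2b and Amy2a5 shared a run of 58 bases at the same distance from their starts. Most of that run lies after the start and so outside the bases shown. The longest run that either Amy1 window shared with another amylase gene was 10 bases. The 5 genes behind the brightest probe set could not be told apart in the intensities.

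CACCTG was found 4 times in the Cel window, together with a single TTTCCC, which overlaps a match of TGGGAA by 5 bases. Of 32851 upstream windows of the same length in the RefSeq table, 17.2% held CACCTG, 21.9% held TTTCCC and 3.61% held both. CACCTG also stood in the windows of Amy2b and Pnliprp2, where TTTCCC was not found. TATAAA was found in the windows of Amy2a5, Amy2b and Pnlip, 30 to 21 bases before the start, and in 1 of the 2 windows of Amy1, and 12.4% of all windows held it. The looser E-box CANNTG, of which CACCTG is a case, stood in 66.2% of all windows. TGGGAA, present in 21.6% of all windows, matched in the windows of Cel, Pnlip, Pnliprp1 and 1 of those of Amy1. These are matches of letters only.

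Read through their brightest probe sets, the enzyme genes had nearly equal intensities in both pools, and all but Amy1 stood at the top of the arrays' range. Over the 7 genes, each read through its brightest probe set, the median log2 difference was 0.026 (methionine-deficient minus control) and the largest in size was -0.057, beside a probe-set spread of 0.18. This spread is that of the whole top level bin, which starts at an intensity of 1477. It is wide for far brighter probe sets, since non-members at 100000 or more had a median absolute log2 difference of 0.045. A value under 0.18 thus says little for them. None of the 7 genes differed by 2-fold or by 1.5-fold. Of the 11849 genes past the level filter, 6.68% differed by at least 2-fold and 19.4% by at least 1.5-fold. Of the 74 probe sets with a mean intensity of at least 100000, the level of all the enzyme genes but Amy1, 0% did so at either fold. The closeness of the pools was thus shared by probe sets at that level. The filter kept genes at or above the median level of all probe sets, an intensity of 150. The median log2 difference of all these genes was 2.8e-05. As deposited, 5 of the 7 genes were higher and 2 lower. Setting each array to a common median lowers every probe set by the same 0.052, which is larger in size than most of these differences and puts all 7 genes below 0, so their sign depends on the scaling and no direction is given to them.

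**Figure D1:**
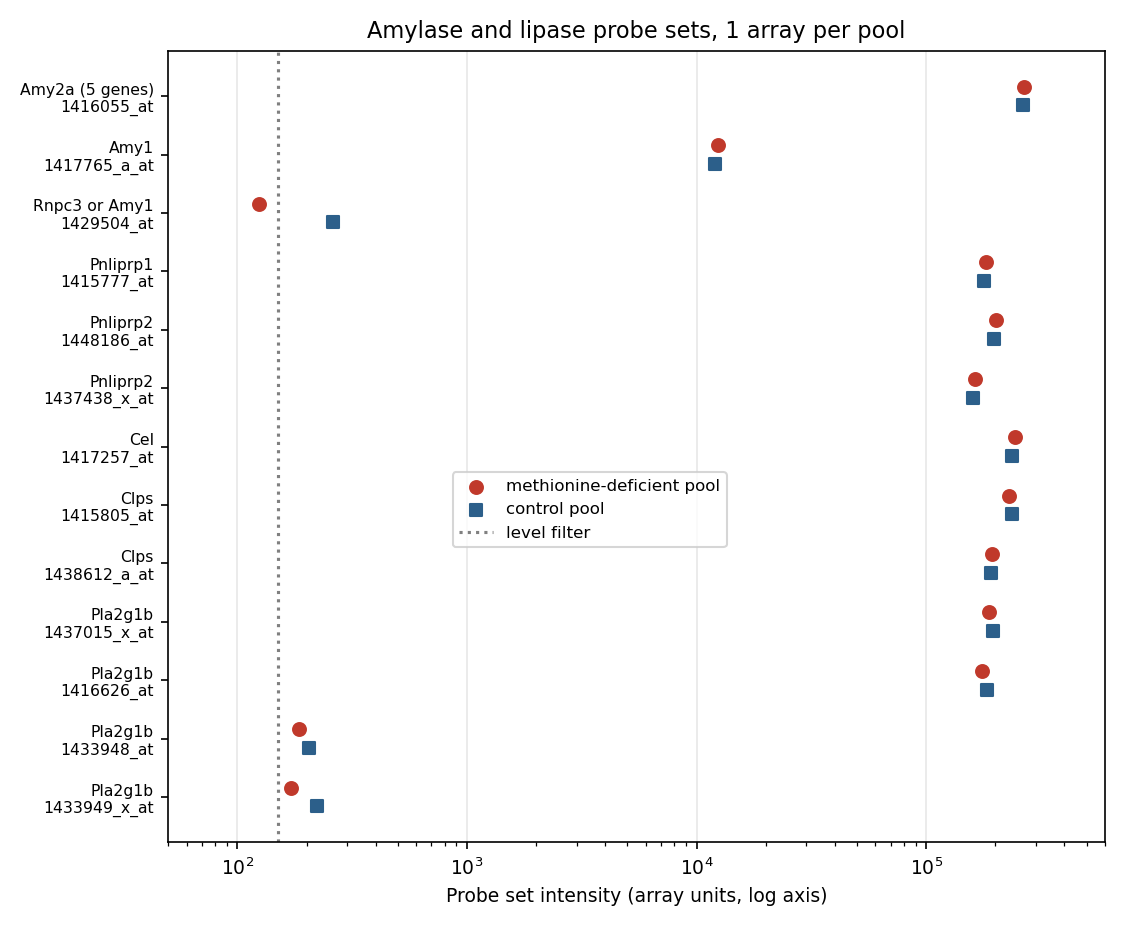
Intensity of each amylase and lipase probe set (log axis, array units) in the methionine-deficient pool (red circles) and the control pool (blue squares), 1 array per pool. The 10 bright probe sets nearly coincide, and the widest gap is that of the probe set annotated to Rnpc3 and Amy1, at 124 in the methionine-deficient pool against 262 in control.

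Among the amylases, the Amy2a probe set was the brightest probe set of either array, array controls included. Its intensity was 266191 in the methionine-deficient pool and 263446 in the control pool, so the log2 difference was 0.015, with a spread of 0.18. The value belongs to 5 annotated gene copies together, and a change in 1 copy could not be read from it. The Amy1 probe set had an intensity of 12350 in the methionine-deficient pool and 12028 in the control pool, so the log2 difference was 0.038, with the same spread. The pools were closer than the spread both for Amy1, which lies well inside the measured range, and for Amy2a at its top. The Amy2a intensity was 21.6 times that of Amy1 in the methionine-deficient pool and 21.9 times in the control pool. Such a ratio depends on the probes and is no ratio of transcript amounts, but it was close to the same on both arrays. None of the 7 salivary gland markers with a probe set, among them Bpifa2, Smr3a and Aqp5, reached the level filter, and their summed intensity was 543 in the methionine-deficient pool and 441 in the control pool.

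The other Amy1 probe set was the single member probe set past 2-fold. It is annotated to both Rnpc3, which encodes a protein of the minor spliceosome, and Amy1, and the RefSeq table lists the synonym C030014B17Rik for both genes. Its intensity was 124 in the methionine-deficient pool and 262 in the control pool, which is 2.10-fold lower (log2 difference -1.07, probe-set spread 0.77). The methionine-deficient value is under the filter level, so this probe set passed only through the pool in which it is high. With a pseudocount of 16 in place of 1 the difference was -0.98, no longer past 2-fold. At this level such a difference was common, since 8.9% of probe sets in the dimmest of 5 level bins past the filter were at least 2-fold lower, as were 3.41% of all 22519 probe sets past it. The 2 probe sets annotated to Rnpc3 alone were also lower. The brighter had 497 in the methionine-deficient pool and 804 in the control pool (log2 difference -0.69, probe-set spread 0.46). The dimmer had 218 in the methionine-deficient pool and 378 in the control pool (log2 difference -0.79, probe-set spread 0.60). All 3 Rnpc3 probe sets lay below 0, and the probe set of Amy1 alone lay at 0.038. All were read on the same 2 arrays, so a common sign is no independent support. Which of the 2 genes the shared probe set reads was not tested.

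**Figure D2:**
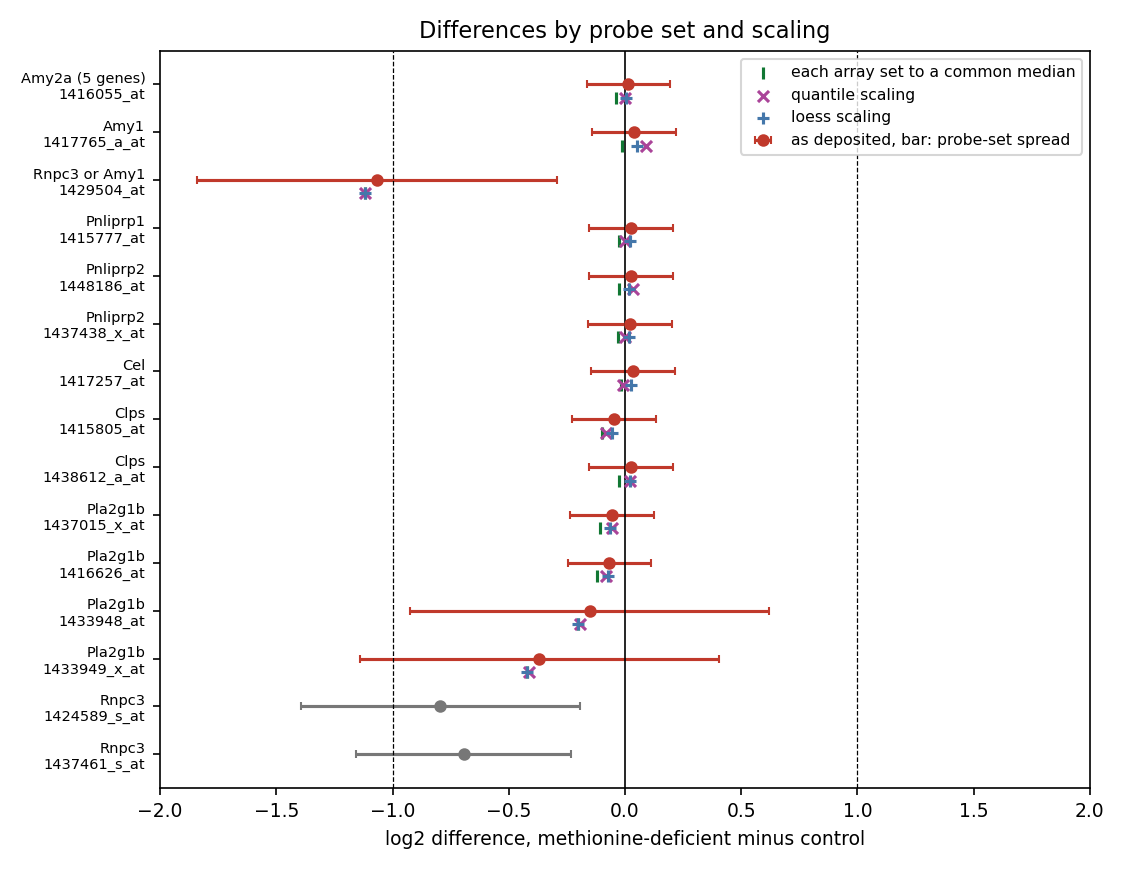
The log2 difference (methionine-deficient minus control) of each member probe set in red and of the 2 probe sets of Rnpc3 alone in grey, with the probe-set spread as bars. Small marks give the members under 3 other scalings, and dashed lines mark 2-fold. Bright members lie between -0.067 and 0.038 as deposited, and the shared Rnpc3 and Amy1 probe set lies at -1.07 beside the other Rnpc3 probe sets at -0.79 and -0.69.

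Cel was read by a single probe set. It had an intensity of 243353 in the methionine-deficient pool and 237669 in the control pool (log2 difference 0.034, probe-set spread 0.18). Pnliprp2 was read by 2 probe sets, which gave nearly the same difference. The brighter had 202093 in the methionine-deficient pool and 198429 in the control pool (log2 difference 0.026), and the second had 162853 in the methionine-deficient pool and 160404 in the control pool (0.022). Pnliprp1 had 181442 in the methionine-deficient pool and 178156 in the control pool, also a log2 difference of 0.026. The mean log2 difference of Cel, Pnliprp1 and Pnliprp2 was 0.029, beside 0.015 for Amy2a, all at intensities that can be compressed.

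Colipase was read by 2 bright probe sets whose differences had opposite signs. The brighter Clps probe set had 228884 in the methionine-deficient pool and 236576 in the control pool (log2 difference -0.048). The second had 194610 in the methionine-deficient pool and 191106 in the control pool (log2 difference 0.026). Both values were under the spread of 0.18, and the second turned negative, at -0.026, with each array set to a common median.

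All 4 probe sets of Pla2g1b had values below 0, each by less than the spread of its level bin. They were read on the same 2 arrays, so their common sign is no independent support, and no direction is given. The 2 bright probe sets had log2 differences of -0.057 and -0.067. The first had 187483 in the methionine-deficient pool and 194977 in the control pool, and the second had 175270 in the methionine-deficient pool and 183618 in the control pool. Of the dim ones, which the annotation ties to a single accession, the first had 185 in the methionine-deficient pool and 206 in the control pool. The other had 171 in the methionine-deficient pool and 221 in the control pool. Their log2 differences were -0.15 and -0.37, with a probe-set spread of 0.77. The probe sets of this gene thus lay near both ends of the measured range, one pair where intensities can be compressed and the other near the level filter, so the ratio between them is not a measured quantity. As deposited, their mean levels spanned 9.93 on the log2 scale, against a median span of 2.36 over the 9010 genes with at least 2 probe sets. Of the 17 genes with several probe sets and a brightest one above 100000, 4 had a probe set below 1000, Pla2g1b among them. A span as wide as that of Pla2g1b was rare, reached by 14 of the 9010 genes, Pla2g1b included.

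Ranked by level among 45037 probe sets without array controls, the members fell into 3 tiers. The ranks describe probe sets and not transcript amounts, since intensity depends on the probes and was not taken per transcript length. The top tier held 9 probe sets of 6 genes, all among the first 42. Amy2a was rank 1, Cel rank 6, Clps ranks 7 and 19, Pnliprp2 ranks 15 and 42, Pla2g1b ranks 20 and 30, and Pnliprp1 rank 28. Mean log2 levels in this tier lay between 17.30 and 18.01, a range narrower than the median span of 2.36 between probe sets of 1 gene, so the order of genes within it is not distinguished. Amy1 formed the middle tier alone, at rank 526. The 2 dim Pla2g1b probe sets and the one shared by Rnpc3 and Amy1 were at ranks 19648, 19683 and 20497.

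The ranks were close on both arrays. Amy2a was rank 1 and Cel rank 6 in both pools, and Pnliprp1 was rank 28 in the methionine-deficient pool and 29 in the control pool. The widest shift in the top tier was that of the brightest Pla2g1b probe set, at rank 25 in the methionine-deficient pool and 18 in the control pool. Of the 10 brightest probe sets 3 were members and 6 belonged to the list of other digestive enzyme and granule genes, and of the brightest 50, 9 were members and 27 belonged to that list. The 3 non-member genes nearest to Amy2a in rank were 2210010C04Rik, the kallikrein gene Klk1 and the trypsinogen gene Prss2, with log2 differences of -0.046, 0.025 and 0.039. The 13 member probe sets held 3.47% of the summed intensity of the methionine-deficient array and 3.48% of that of the control array. They made up 0.0289% of its probe sets.

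**Figure D3:**
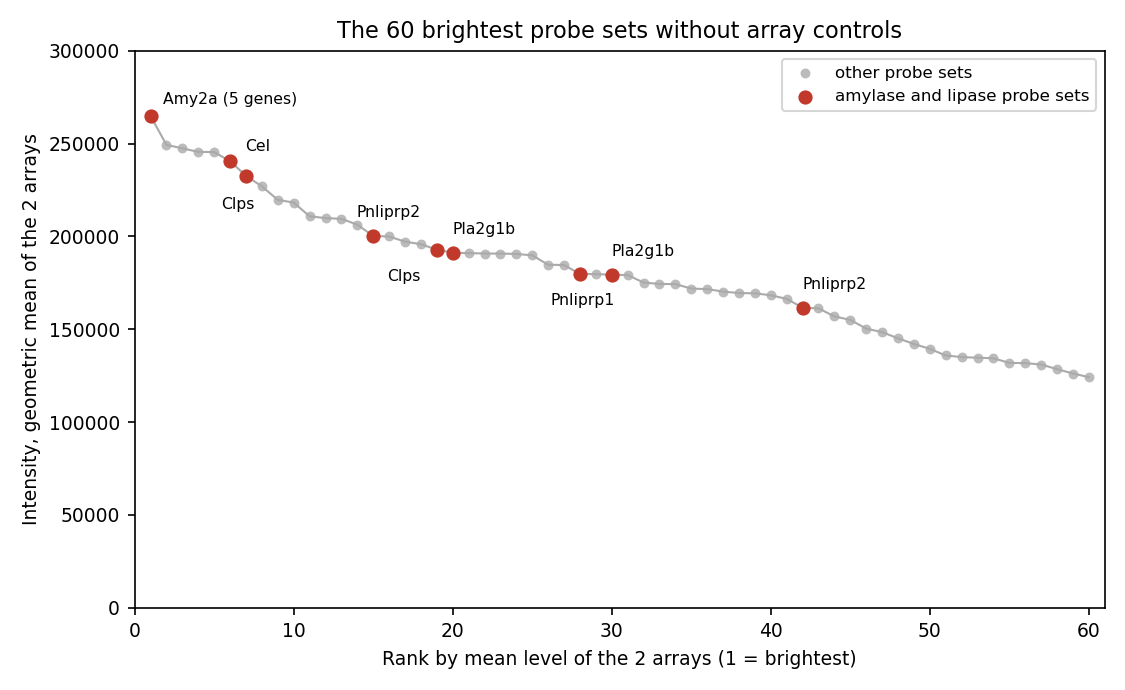
Intensity (geometric mean of the 2 arrays, linear axis from 0) of the 60 brightest probe sets by rank, array controls left out, with amylase and lipase probe sets in red. Amy2a stands first and 9 member probe sets lie within the first 42 ranks.

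At the top of the range nearly all probe sets were close between the pools. Many of them belong to genes of the same kind, since of the brightest 50, 9 were members and 27 were other digestive enzyme and granule genes. Whether the closeness goes with the level or with the kind of gene was not tested. Of the 74 probe sets with a mean intensity of at least 100000, 0% differed by 2-fold or by 1.5-fold. The 65 of these that were not members had a median absolute log2 difference of 0.045, and the 9 members had 0.026. The largest among the 65 was 0.48. Hybridization controls of the cre transcript, which are added in fixed amount after labelling, reached 244674 in the methionine-deficient pool and 236254 in the control pool, the same range as the enzymes. Intensities this high can be compressed on arrays, so a small true difference in the 9 brightest members may be understated, and how much was not tested. Amy1, at an intensity of 12350 in the methionine-deficient pool and 12028 in the control pool, lies below that range. The deposited values carry no detection calls.

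**Figure D4:**
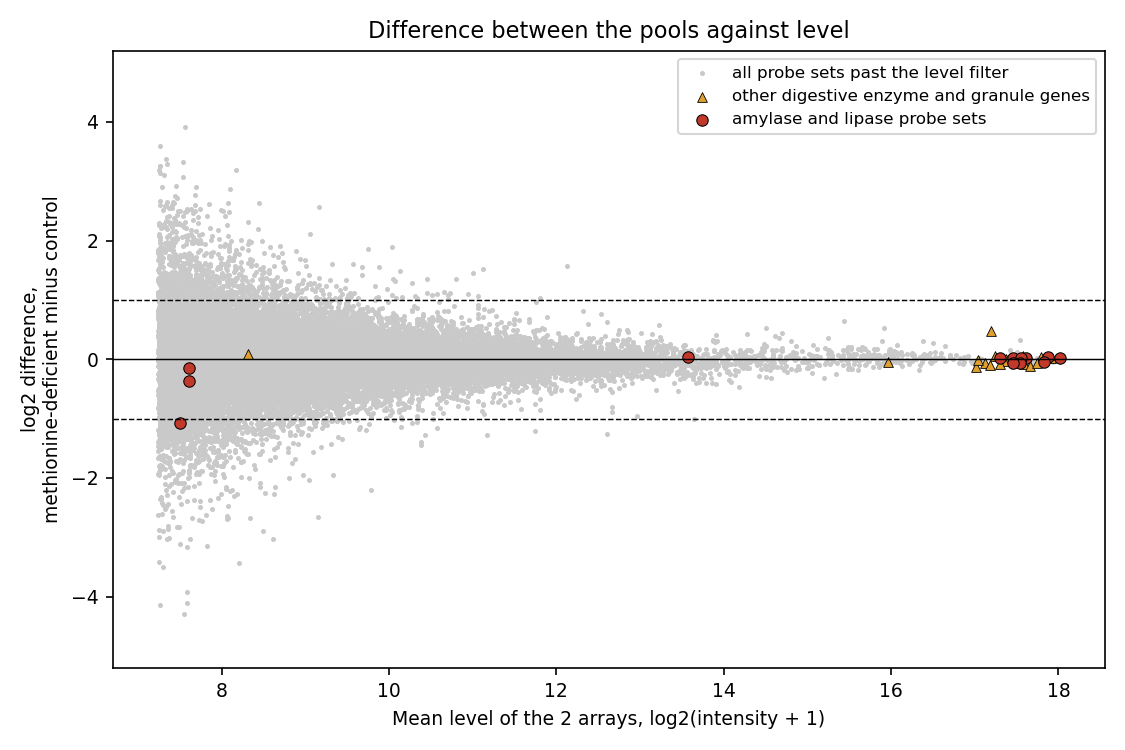
The log2 difference (methionine-deficient minus control) of 22519 probe sets past the level filter against their mean log2 level, with 13 amylase and lipase probe sets as red circles and other digestive enzyme and granule genes as orange triangles. Dashed lines mark 2-fold. The spread narrows from left to right, and members lie near 0 except for the dim ones at the left.

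The other digestive enzyme and granule genes were bright as well, except Dnase1, a nuclease gene at 327 in the methionine-deficient pool and 309 in the control pool, which was named after its values were seen. Of 26 listed, 20 had a probe set of their own and all 20 passed the filter, 9 higher and 11 lower, with a median log2 difference of -0.023 beside 0.026 for the amylase and lipase genes. None was past 2-fold. The largest was the trypsinogen gene Prss3 at 0.48 (probe-set spread 0.18), from a probe set that may read related trypsinogens. Its intensity was 177568 in the methionine-deficient pool and 127298 in the control pool. Next in size were the chymotrypsin-like gene Ctrl (-0.12) and the granule membrane protein gene Gp2 (-0.10).

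Transcription factors of acinar cells had a median log2 difference of 0.015 over 11 genes, with 6 higher and 5 lower and none past 2-fold. Ptf1a, the acinar subunit of PTF1, had 12350 in the methionine-deficient pool and 15391 in the control pool (log2 difference -0.32, probe-set spread 0.18). The forkhead factor gene Foxa3 had -0.52 (probe-set spread 0.18) and Gata6 had -0.26 (probe-set spread 0.31). Xbp1, a regulator of secretory capacity and the brightest of the list, had -0.014. Over 12 genes for acinar stimulation and hormone receptors the median was -0.029, with 5 higher and 7 lower. Cckar, the cholecystokinin receptor that drives enzyme secretion in rodents, had 37963 in the methionine-deficient pool and 45041 in the control pool (log2 difference -0.25, probe-set spread 0.18). The muscarinic receptor gene Chrm3 had 0.92 (517 in the methionine-deficient pool and 272 in the control pool), the secretin receptor gene Sctr had 0.81, and Cckbr had -0.65.

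The tissue label was checked against markers. All 7 acinar markers passed the filter, with intensities of at least 3950 in the methionine-deficient pool and 4659 in the control pool, and a median log2 difference of -0.057. Among markers of other cell types, 6 of the 7 for B and plasma cells passed, with a median of -0.53 and, over those with a probe set, a summed intensity of 5867 in the methionine-deficient pool and 11012 in the control pool. The median was 0.43 over 4 endothelial markers, the largest being Tek at 0.48 (probe-set spread 0.46). It was 0.41 over 4 duct markers, where the dim Krt7 and Sox9 had 0.74 and 0.62 (probe-set spread 0.60). Krt19 had 0.19, and the brightest duct marker, Muc1, had -0.055. Summed over duct markers with a probe set, the intensity was 10273.4 in the methionine-deficient pool and 10270.5 in the control pool. The median was -0.20 over 4 adipocyte markers, -0.052 over 5 macrophage markers, 0.19 over 6 fibroblast and stellate cell markers and -0.0042 over 7 islet markers. The fibroblast and stellate median includes Pdgfrb, with 221 in the methionine-deficient pool and 142 in the control pool. Pdgfrb passed only through the pool in which it is high. The macrophage complement gene C1qa stood apart at 1.01, with 2381 in the methionine-deficient pool and 1181 in the control pool. The 2 T cell markers past the filter went opposite ways, Cd4 at -1.73 (probe-set spread 0.77) and Cd8a at 0.53 (probe-set spread 0.31). Cd4 had 114 in the methionine-deficient pool and 381 in the control pool. The first value is under the filter level, so Cd4 passed only through the pool in which it is high. The red cell and Schwann cell lists had 1 gene each past the filter. Their part in the enzyme values was not tested. In pooled whole pancreas, fewer acinar cells and less enzyme RNA per cell cannot be told apart. For RNA quality, the 3' over 5' signal of the array's control probe sets was 1.76 in the methionine-deficient pool and 1.46 in the control pool for Actb, and 1.11 in the methionine-deficient pool and 0.973 in the control pool for Gapdh. The 27 poly-A spike-in probe sets, added before labelling, had a median log2 difference of 0.18 with 24 of them higher, which is larger than the difference of any bright member. The 18 hybridization control probe sets, added after labelling, had a median of -0.019 with 8 higher. The part of these offsets in the enzyme values was not tested.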

How the data were processed

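Total pancreas RNA was labelled with biotin through a 3' IVT kit and read on Affymetrix arrays, per the labels' protocols. The authors deposited linear intensities, 1 for each probe set, and no source used here names the program or scaling behind them. Both arrays had a mean of 500.003 once 2% of values were trimmed at either end, so a common scaling is likely from the values. Probe sets were named from the platform annotation, with single-gene names updated by gene identifier (34741 probe sets). A gene was read through its brightest probe set. Values were transformed to log2(intensity + 1) as deposited, and the control value was subtracted from the methionine-deficient one. The probe-set spread was the robust SD of differences between probe sets of 1 gene that are neighbours in level, divided by the square root of 2, in 5 level bins. No test was possible with 1 array per group, and the number of arrays limits the precision. Named genes were all member probe sets and, of each list, up to 3 with the largest difference and the brightest 2. The members and lists were chosen with earlier results of these data known. The counting and the spread were tested on simulated data. Alternatives were 3 other scalings, a pseudocount of 16, other level filters, fold sizes and ways to read a gene, and rank per array. Promoter windows came from RefSeq (GRCm38.p6). Proteins were not analysed here. Python 3.11.15, numpy 2.4.6 and statsmodels 0.14.6 were used.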

Additional observations from a re-analysis of the deposited data

How the results depend on the processing

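Of 179 values recomputed under the alternatives, 174 stayed within the probe-set spread of their level bin, which is wide for the brightest probe sets. For counts the limit was 1.5 times, and for ranks it was the ranks that the spread spans. The median over the member genes stayed between -0.026 (each array set to a common median) and 0.026, and was 0.015 with the mean over probe sets and 0 with quantile scaling. It was 0.026 both without the shared Amy2a probe set and over the 9 bright probe sets with 1 symbol, alternatives chosen after seeing the data. Under scaling and pseudocount changes, 8 of 52 values of member probe sets changed sign, 7 of them with each array set to a common median, which lowers every probe set by the same 0.052. No member gene was past 2-fold under the alternatives run. With the mean over probe sets, Amy1 was at -0.51, since that mean takes in the probe set shared with Rnpc3. The count of all genes past 2-fold, 791 of 11849, was 4325 without a level filter, 90 with the filter at the 75th percentile, 2302 at 1.5-fold and 215 at 3-fold. The rank of the Amy1 probe set was 267 when only the brightest probe set of each gene was ranked, since fewer probe sets were ranked. No paired analysis was possible because each group is 1 pooled array, and no array could be left out. Saturation and signal over background limit the brightest and the dimmest members.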

Other observations

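Lipases and phospholipases of other tissues were read at far lower intensities than the pancreatic enzymes. Of 30 listed, 27 had a probe set of their own and 18 passed the filter, 7 higher and 11 lower, with a median log2 difference of -0.055. The brightest was Lpl, the lipoprotein lipase of fat and muscle, at 11176 in the methionine-deficient pool and 11407 in the control pool. Of the 18, 1 was past 2-fold, beside 6.68% of all genes past the filter. It was Pla2g2f, a secreted phospholipase A2 gene, at 710 in the methionine-deficient pool and 142 in the control pool (log2 difference 2.32, probe-set spread 0.60). Its control value is under the filter level of 150, so it passed through the pool in which it is high. Pnpla3 followed at 0.90 and Pla2g10 at 0.72 (probe-set spread 0.77). Pla2g10 had 204 in the methionine-deficient pool and 124 in the control pool, so it too passed only through the pool in which it is high. The count of 18 and its median include Pla2g2f and Pla2g10.

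Of 9 genes for carbohydrate digestion and glycogen breakdown, 4 passed the filter, with a median of 0.058, and the glycogen phosphorylase gene Pygb had the largest difference at -0.83. Of 11 genes for fat absorption in the intestine, 7 passed, with 6 of them lower and a median of -0.17. Among these Pla2r1, a receptor for secreted phospholipase A2, had -0.84 and Apob 0.46 (probe-set spread 0.77 for both). Pla2r1 had 146 in the methionine-deficient pool and 261 in the control pool. Apob had 202 in the methionine-deficient pool and 146 in the control pool. The lower value of each is under the filter level, so both genes passed only through the pool in which they are high. The count and the median above include them. Of 8 liver markers 3 passed, with a median of -0.25. This is the value of Ttr, with 11572 in the methionine-deficient pool and 13714 in the control pool (probe-set spread 0.18). Alb had the largest difference at -0.53, under its probe-set spread of 0.60, with 193 in the methionine-deficient pool and 279 in the control pool. Of 10 stomach and duodenum markers 4 passed, and 3 of these (Muc5ac, Vil1 and Gkn1) did so only through the pool in which they are high, so no median is given. Muc5ac had 350 in the methionine-deficient pool and 70.9 in the control pool (probe-set spread 0.77). Tff1, which lies above the filter level in both pools, had 3406 in the methionine-deficient pool and 2542 in the control pool (log2 difference 0.42, probe-set spread 0.18).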
